A study of Mus musculus with 54 samples.

Results

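The experiment described here is the response of cultured small-intestinal ILC2s to IL-25 after 48 h. ILC2s are group 2 innate lymphoid cells, tissue lymphocytes without rearranged antigen receptors that secrete type 2 cytokines. Its members are 8 of the 54 samples of the series, chosen by their labels and not by any measured value. The cells of 4 libraries were cultured for 48 h in IL-2 plus IL-7, the controls here, and those of the other 4 in IL-2, IL-7 plus IL-25. All 8 libraries are labelled as wild type (WT) cells of C57BL/6 mice aged 8 to 12 weeks, with the sex given as pooled male and female. Both groups therefore share the strain, the genotype, the culture time and the cytokines IL-2 and IL-7, and differ by label in IL-25 alone. The same design at 4 and 72 h served for comparison, 8 samples each. The labels do not say whether libraries of a group came from separate animals or cultures, so the p-values measure the spread between these libraries, which may be technical.

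IL-25 is a cytokine of the IL-17 family that tuft cells, a chemosensory cell of the intestinal lining, release during worm infection. It binds a receptor of the chains IL-17RB and IL-17RA, and that receptor acts through adaptor proteins on NF-kB, a transcription factor family of inflammation, and on MAP kinases. Activated ILC2s secrete IL-5, which recruits eosinophils, and IL-13, which drives mucus production and the renewal of tuft and goblet cells. IL-2 and IL-7 signal through the shared gamma chain, JAK1, JAK3 and STAT5, and keep the cells alive in culture, so that the comparison asks what IL-25 adds to cells already receiving both.

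The libraries were made with Smart-seq2, which copies whole transcripts from few cells, and the deposited table lists 10799 genes in TPM, a measure of each gene's part of the transcripts of a library, corrected for gene length. TPM keeps no read number, so the depth of a library is unknown and no counting error can be given. The listed genes of the 8 libraries summed to between 873200 and 892555 TPM, with 9595 to 9899 genes at 1 TPM or more. The 10 most abundant genes held 7.53% to 8.50% of the listed TPM without IL-25 and 6.65% to 7.12% with it. Over the 10548 genes tested, log2(TPM + 1) values of libraries of the same group correlated with r between 0.984 and 0.988 over 12 pairs, and libraries of different groups with r between 0.925 and 0.934 over 16 pairs, as a description across genes of the same samples. By that measure no library stood apart from its group. Libraries are numbered as in the labels. Values are means ± SD of n = 4 libraries, a log2 difference is that of TPM + 1 with IL-25 minus without, and a gene is said to have risen or fallen where the limma adjusted p was under 0.05. A difference on that scale understates the change of genes with few TPM.

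After 48 h, about as many genes were called as were not. Of 10548 genes tested, 5280 were called (50.1%), of which 2254 were higher (21.4%) and 3026 lower (28.7%). A call of at least 2-fold was made for 540 genes upward (5.12%) and 838 downward (7.94%). All 4 libraries with IL-25 lay above all 4 without it for 2055 genes (19.5%) and below them for 2611 genes (24.8%). The median log2 difference over all genes tested was -0.09 in the deposited values and -0.01 once they were rescaled by the median of ratios. With a share this high, the count called in a gene list below is to be read against 21.4% and 28.7%. In bulk RNA, fewer cells of a type and less RNA per cell cannot be told apart.

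**Figure D1:**
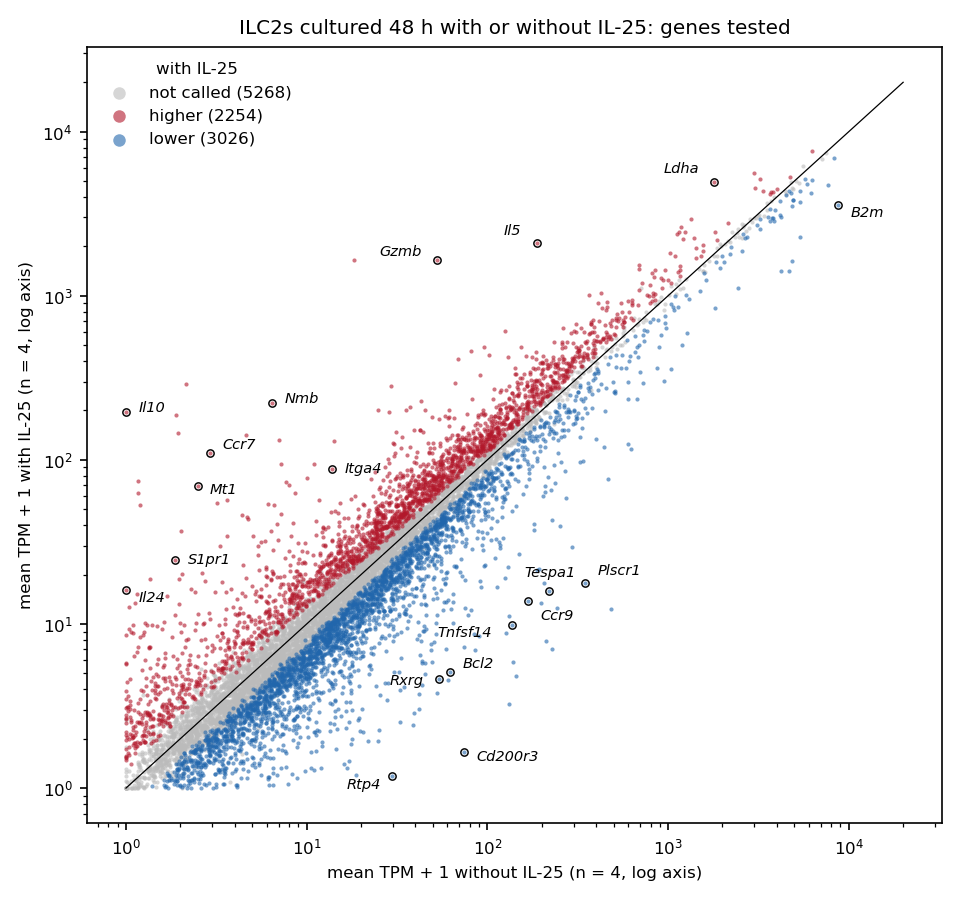
Mean TPM + 1 of each gene tested without IL-25 (horizontal, log axis) and with IL-25 (vertical, log axis) after 48 h, n = 4 libraries a group, with the 2254 genes called higher in red, the 3026 called lower in blue and genes not called in grey. Circled genes are labelled examples: Il10, Ccr7, Nmb and Gzmb lie far above the line of equal values, and Plscr1, Ccr9, Bcl2 and Cd200r3 far below it.

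The cell type was checked first against marker genes. Of 17 ILC2 markers 16 are listed, and their summed level was 3487 to 3860 TPM per library without IL-25 and 4931 to 5618 TPM with it. Of the 16, 6 were called higher, the secreted products Il5, Il13 and Areg among them, and 7 lower. The 4 defining genes Gata3, Il17rb, Il7r and Id2 were present in every library and all lower with IL-25 (log2 differences -1.29, -2.72, -1.45 and -1.26), so the sum does not stand for their levels. Of 11 T cell markers only Cd3e and Cd3g are listed, with a summed level of 82.4 to 129 TPM without IL-25 and 23.9 to 29.0 TPM with it. Markers of other cell types were read in the same way. Of 12 epithelial markers Epcam and Krt18 are listed (95.9 to 113 TPM without IL-25, 35.1 to 40.5 TPM with it). Most of the sum was Epcam, which fell (log2 difference -1.70), while Krt18 rose (log2 difference 2.73). Of 10 markers of the red blood cell lineage Hba-a1, Hba-a2 and Tfrc are listed (489 to 562 TPM without IL-25, 36.7 to 41.9 TPM with it). The first pair fell, and they are near-identical copies whose split is uncertain, while Tfrc rose (log2 difference 1.55). B or plasma cell markers listed were Cd79b and Sdc1 (44.2 to 50.6 TPM without IL-25, 73.6 to 94.3 TPM with it). For myeloid cells, mast cells or basophils, NK cells or ILC1, ILC3, and stromal or endothelial cells, the listed markers summed to at most 33.3 TPM in any library. The part of these other genes in the results below was not tested.

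Secreted factors were among the strongest responses. Il24, a cytokine gene of the IL-10 family, was listed at 0 in the 4 libraries without IL-25 and at 17.5, 11.6, 15.8 and 16 TPM with it. Il10, which encodes the anti-inflammatory founder of that family, was likewise listed at 0 without IL-25 and was 224, 151, 198 and 207 TPM with it. No library of either group overlapped for these genes, and no fold can be given against a value of 0. Nmb, the gene of the peptide neuromedin B (chromosome 7, 80902227 to 80905062 in GRCm38.p6), was 5.31, 4.97, 6.38 and 4.96 TPM without IL-25 and 209, 207, 226 and 237 TPM with it (log2 difference 5.11 ± 0.23 (SE), limma adjusted p = 1.8e-15). Every library with IL-25 was thus far above every library without it, and the ratio of the means was 40.6-fold. Il9, a growth factor gene of mast cells and ILC2s, was 33.5 ± 19 against 2.6 ± 0.938 TPM (log2 difference 3.09 ± 0.48 (SE), limma adjusted p = 7.5e-06).

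The cytokine list as a whole moved both ways, with 8 of 20 tested members higher and 6 lower (median log2 difference 0.14). Il5, Il13 and Areg, the classical products of the cell, rose by 3.48, 3.01 and 2.25 on the log2 scale. Il4, the fourth cytokine gene of the type 2 program, fell instead, from 88.8, 107, 114 and 94.8 TPM to 65, 63.3, 66.7 and 64.2 TPM (log2 difference -0.63 ± 0.12 (SE), limma adjusted p = 7.6e-05). No library with IL-25 reached the lowest library without it. Il2, the T cell growth factor, was 0.055 against 6.9 TPM, and Csf1, a macrophage growth factor, was 0.05 against 5.15 TPM. Both fell, as did Il6 (3.32 against 8.89 TPM), whereas Osm, which encodes oncostatin M, rose (105 against 64.8 TPM). Csf2 was near 0 in both groups (0 against 0.265 TPM).

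Genes of cell migration changed in opposite directions within a family. Ccr7, whose product leads cells along CCL19 and CCL21 into lymphatics (chromosome 11, 99144199 to 99155077), was 1.07, 3.42, 0.39 and 2.78 TPM without IL-25 and 117, 88.5, 103 and 126 TPM with it (log2 difference 5.37 ± 0.33 (SE), limma adjusted p = 6.4e-13). S1pr1, the sphingosine-1-phosphate receptor used to leave tissue, was 0.45, 2.06, 0.3 and 0.68 TPM without IL-25 and 27.6, 22, 24.4 and 19.8 TPM with it (log2 difference 3.78 ± 0.26 (SE), limma adjusted p = 8.4e-12). For both genes, the lowest library with IL-25 was several times the highest without it. Itga4, the alpha 4 integrin chain, was 86.9 ± 12 against 12.9 ± 0.786 TPM, and its partner chain Itgb7, which with it binds the gut vessel ligand MAdCAM-1, was 265 against 376 TPM (log2 difference -0.47, -0.93 to -0.01, limma adjusted p = 0.085). The range given is the 95% interval of the difference. Itgb7 was called lower after quantile normalization, with array weights and in the fit of the 8 libraries alone.

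Ccr9 encodes the receptor for CCL25, the chemokine of the small-intestinal lining (chromosome 9, 123767211 to 123783457). It was 153, 147, 198 and 167 TPM without IL-25 and 13.8, 12.9, 14.7 and 9.89 TPM with it, a 12.9-fold difference with no overlap (log2 difference -3.6 ± 0.16 (SE), limma adjusted p = 1.6e-15). Ccr2 fell as well (8.78 ± 1.54 against 43.4 ± 7.47 TPM). Among 11 chemokine receptor genes tested 6 rose and these 2 fell. Besides Ccr7, the risen included Ccr1, a receptor gene for inflammatory chemokines (62 ± 5.81 against 0.16 ± 0.122 TPM), Ccr4 (66.3 ± 9.17 against 34 ± 6.36 TPM), Xcr1 (11.1 against 5.16 TPM) and Ccr3 (1.26 against 0.09 TPM). Cxcr6, the most abundant of the list, was 889 against 850.2 TPM (log2 difference 0.06, -0.09 to 0.21, limma adjusted p = 0.51), and Ccr8 was 98.5 against 109 TPM (log2 difference -0.15, -0.36 to 0.06, limma adjusted p = 0.24). Of 18 tissue retention and egress genes, S1pr1 and Itga4 rose and 7 fell. The fallen included the beta 3 integrin chain Itgb3 (7.07 ± 1.12 against 39.9 ± 3.53 TPM), the oxysterol receptor gene Gpr183 (12.6 ± 2.12 against 56.5 ± 5.05 TPM), the hyaluronan receptor gene Cd44 (32.4 ± 3.38 against 93.8 ± 12.4 TPM) and the transcription factor gene Klf3 (1.29 ± 0.7 against 13.7 ± 0.479 TPM). Cd69, which holds lymphocytes in tissue by pulling S1PR1 inside, was 50.7 against 53.6 TPM (log2 difference -0.07, -0.3 to 0.15, limma adjusted p = 0.61).

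**Figure D2:**
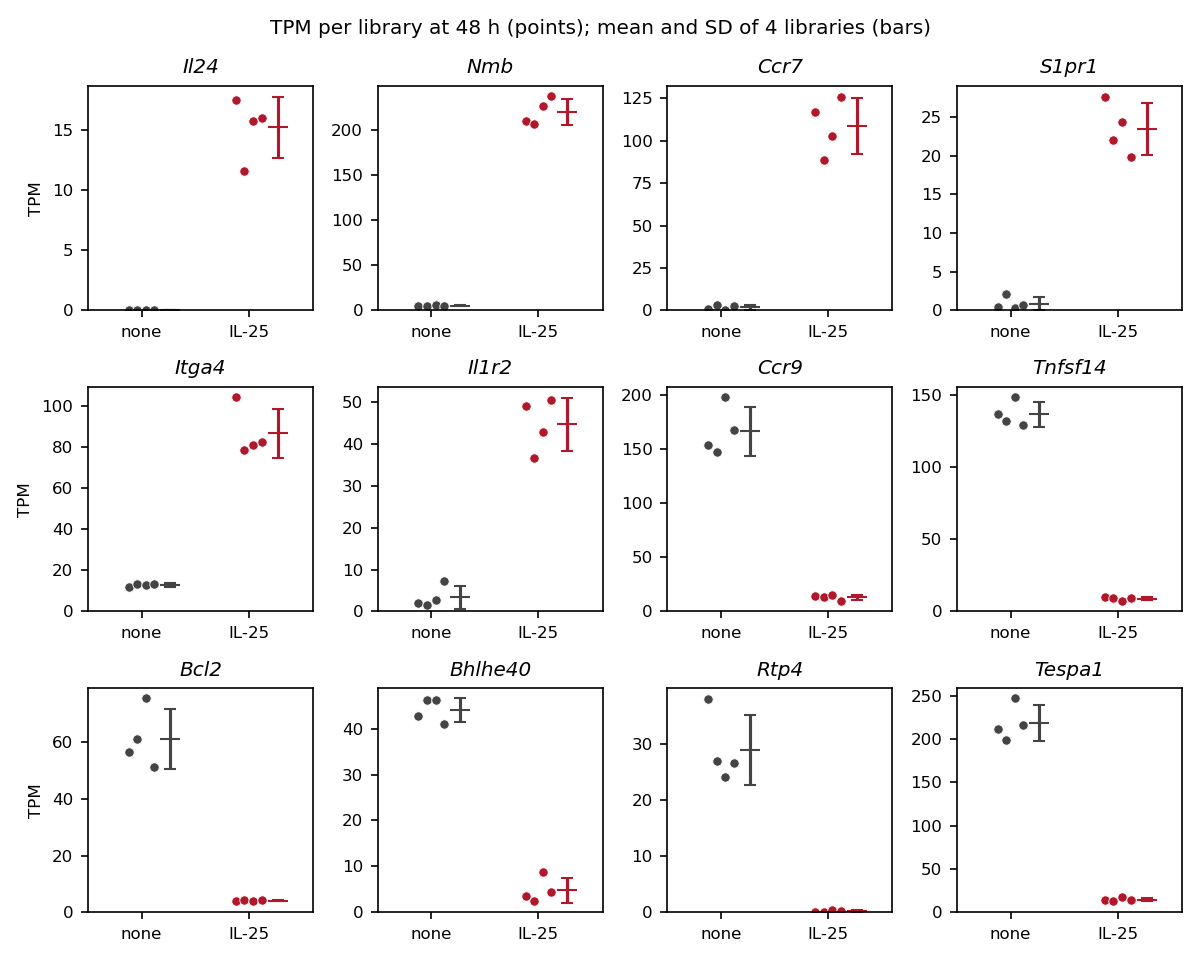
TPM of 12 genes in each of the 4 libraries without and the 4 with IL-25 after 48 h (points), with the mean and SD beside them, each panel on its own axis from 0. The groups do not overlap in any panel: Il24, Nmb, Ccr7, S1pr1, Itga4 and Il1r2 are higher with IL-25, and Ccr9, Tnfsf14, Bcl2, Bhlhe40, Rtp4 and Tespa1 lower.

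Receptors for cytokines fell more often than they rose, with 16 of 28 tested chains lower and 2 higher. The 2 that rose were Il1r2, a decoy receptor that binds IL-1 without signalling, and Il2ra, the alpha chain of the IL-2 receptor. Il1r2 was 1.99, 1.48, 2.71 and 7.37 TPM without IL-25 and 49.1, 36.8, 42.9 and 50.6 TPM with it, and Il2ra was 235 ± 26.6 against 81.5 ± 9.03 TPM. Both chains of the IL-25 receptor were lower, Il17rb at 18 ± 1.61 against 124 ± 15.6 TPM (log2 difference -2.72 ± 0.09 (SE), limma adjusted p = 5e-18) and Il17ra at 8.78 ± 1.49 against 16 ± 3.75 TPM (log2 difference -0.78 ± 0.15 (SE), limma adjusted p = 0.00016). The receptor chains for the cytokines present in both cultures were lower as well, with Il7r at 17.9 ± 4.81 against 49.3 ± 4.7 TPM and the shared gamma chain gene Il2rg at 301 ± 36.3 against 950.1 ± 51.9 TPM, while the beta chain gene Il2rb was 134 against 135 TPM (log2 difference -0.01, -0.18 to 0.17, limma adjusted p = 0.95). Ifngr2, a chain of the interferon gamma receptor, was 9.15 ± 3.06 against 51.1 ± 3.26 TPM, and Il4ra was 16.6 ± 4.36 against 43.3 ± 5.83 TPM. Il1rl1, which encodes the IL-33 receptor, was 120.2 against 107 TPM (log2 difference 0.16, -0.07 to 0.4, limma adjusted p = 0.24).

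Most ligands of the TNF family were lower. Of 10 ligand genes tested 8 fell and 1 rose (median log2 difference -1.64). Tnfsf14, the gene of LIGHT (chromosome 17, 57189474 to 57194181), was 137, 132, 149 and 129 TPM without IL-25 and 9.91, 9.24, 7.08 and 9.43 TPM with it (log2 difference -3.8 ± 0.11 (SE), limma adjusted p = 2e-19). Even the lowest control library was many times the highest with IL-25. Lta (0.738 against 13.5 TPM), Tnfsf4, the gene of OX40 ligand (1.2 against 9.94 TPM), and Tnf (1.99 against 9.4 TPM) fell with it, and the death ligand gene Tnfsf10 rose (11 against 5.67 TPM). Among 19 receptor genes, 3 rose and 7 fell (4 fell when control library 3 was left out). The risen were Tnfrsf8, which encodes CD30 (187 ± 19.7 against 0.887 ± 0.455 TPM), Tnfrsf9, which encodes the costimulatory receptor 4-1BB (131 ± 21.5 against 6.05 ± 2.14 TPM), and Tnfrsf1b, which encodes TNF receptor 2 (94.7 ± 12.4 against 27.7 ± 6.28 TPM). Cd27 (12.5 ± 1.26 against 58.2 ± 3.73 TPM) and Tnfrsf25, which encodes the TL1A receptor (27.7 ± 4.06 against 81.2 ± 11.9 TPM), fell.

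Of the 22 inhibitory or costimulatory receptors tested, 7 were higher with IL-25 and 11 lower. Tigit and Ctla4 were near absent without IL-25 and reached 145 ± 3.74 against 0.945 ± 0.33 TPM and 73.7 ± 9.37 against 0.16 ± 0.247 TPM. Lag3, an inhibitory receptor for MHC class II, was 13.9 ± 0.962 against 0.68 ± 0.453 TPM, and Pdcd1, which encodes PD-1, was 23.5 ± 5.05 against 13.4 ± 2.6 TPM. Cd226 and Cd96, whose products bind the same ligand as TIGIT, moved the other way, to 5.92 ± 2.01 against 47.6 ± 7.67 TPM and 6.29 ± 1.16 against 73.2 ± 9.93 TPM. The receptors for the inhibitory ligand CD200 and its relatives fell, with Cd200r1 at 41.8 ± 4.84 against 228 ± 20.6 TPM, and so did the ligand genes Icosl (0.323 against 6.21 TPM) and Pdcd1lg2 (4.27 against 18.2 TPM). Icos itself rose (635 ± 37.4 against 327 ± 31.9 TPM).

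Receptors for nerve and lipid signals were mostly lower, with 17 of 23 tested members called lower and 1 higher (median log2 difference -0.87). The exception was Ramp2, a protein that makes CALCRL an adrenomedullin receptor (8.34 ± 3.63 against 0.593 ± 0.628 TPM). Its relative Ramp1, which makes the same partner the receptor for the neuropeptide CGRP, fell (0.795 ± 0.538 against 11.2 ± 1.5 TPM), and Calcrl was 1.66 against 2.97 TPM (log2 difference -0.53, -0.99 to -0.07, limma adjusted p = 0.051). Calcrl was called lower with a pseudocount of 0.1, with array weights, and when control library 1 or IL-25 library 1 was left out. Nmur1, the receptor for neuromedin U, was 353, 346, 411 and 399 TPM without IL-25 and 211, 189, 221 and 202 TPM with it (log2 difference -0.87 ± 0.11 (SE), limma adjusted p = 2.4e-07). All 4 libraries with IL-25 were below all 4 without it. P2ry1, an ADP receptor gene, fell furthest in the list (0.945 ± 0.262 against 23.9 ± 2.85 TPM). Receptor genes for prostaglandin E2 (Ptger4, 8.1 ± 0.943 against 43.9 ± 3.68 TPM), adenosine (Adora2b, 2.44 ± 0.66 against 10.7 ± 1.49 TPM) and cysteinyl leukotrienes (Cysltr2, 16.9 ± 2.99 against 57.4 ± 6.34 TPM) fell as well. Cysltr1, the more abundant leukotriene receptor gene, was 278 against 309.7 TPM (log2 difference -0.16, -0.33 to 0.01, limma adjusted p = 0.12; called lower when IL-25 library 1 was left out). Of 8 eicosanoid and serotonin enzymes 4 fell and 2 rose. The fallen were leukotriene A4 hydrolase (Lta4h) at 131 ± 13 against 187 ± 20.1 TPM, 5-lipoxygenase (Alox5) at 11.3 ± 2.39 against 62.2 ± 8.75 TPM, its activating protein (Alox5ap) at 0.0475 ± 0.095 against 5.48 ± 1.56 TPM and prostaglandin D synthase (Hpgds) at 18.8 ± 5.45 against 35.2 ± 4.99 TPM, and the risen a prostaglandin E synthase (Ptges3) at 251 ± 18.5 against 186 ± 5.27 TPM and a phospholipase that frees arachidonic acid (Pla2g4a) at 3.56 ± 1.68 against 1.3 ± 0.583 TPM. Tph1, the serotonin synthesis enzyme, was 424 against 447 TPM (log2 difference -0.07, -0.28 to 0.15, limma adjusted p = 0.61).

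The interferon response genes of the list fell nearly throughout. Of 50 tested, 45 fell, 39 of them at least 2-fold, and 1, the nuclease gene Samhd1, rose (114 against 89.2 TPM), with a median log2 difference of -1.63 against -0.09 over all genes. Samhd1 was not called after quantile normalization or when control library 3 was left out, and the list then had no member called higher. Ifitm1, an interferon-induced gene that is not in the list, rose strongly (log2 difference 5.09, limma adjusted p = 2.4e-05). Rtp4, an antiviral gene, was 38, 26.9, 24.1 and 26.5 TPM without IL-25 and 0, 0, 0.41 and 0.32 TPM with it (log2 difference -4.65 ± 0.27 (SE), limma adjusted p = 1.7e-13). Even the highest library with IL-25 was far below the lowest without it. Guanylate-binding proteins and immunity-related GTPases, which attack membranes around intracellular microbes, gave some of the largest falls, with Gbp2 at 10.1 ± 3.25 against 131 ± 65 TPM, Gbp8 at 6.01 ± 1.38 against 57.9 ± 5.34 TPM and Iigp1 at 0.287 ± 0.251 against 10.01 ± 4.57 TPM. The Gbp, Tgtp and Slfn genes have close copies between which reads may be split, so single values of them are uncertain. The listed members not called were Bst2 (132 against 141 TPM; log2 difference -0.08, -0.32 to 0.15, limma adjusted p = 0.57), Igtp (94.6 against 107 TPM), Gbp3 (14.3 against 18.4 TPM) and Lgals3bp (175 against 184 TPM).

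The response element of these genes was looked for in the RefSeq promoter windows of build GRCm38.p6, over the 250 bases before each start. The interferon-stimulated response element was searched as GAAANNGAAA on both strands, where N is any base. It was found in 2.98% of 32851 windows, in 3.27% of the 8506 tested genes with a window, and in 19 of the 35 interferon response genes with a window (54.3%). Of these 19 genes, 16 were called lower and Gbp3, Igtp and Bst2 were not called. With or without the element, 30 of the 35 were called lower. The element was thus held by 53.3% of the members called lower, close to the 54.3% of the list. Over all genes it was found in 4.28% of those called lower with a window, 2.63% of those called higher and 2.97% of those not called. The stretches below were chosen after the values were seen, to show the element in 4 members that fell and in 1 that was not called, with the letters of the match in capitals and 120 bases each out of the 250 before the start, 5′ to 3′ on the gene's strand. Gbp2 lies at chr3:142620543-142620662 (+), Gbp7 at chr3:142530216-142530335 (+), Isg15 at chr4:156200827-156200946 (-), Irgm1 at chr11:48871421-48871540 (-) and Bst2 at chr8:71537533-71537652 (-).
Gbp2: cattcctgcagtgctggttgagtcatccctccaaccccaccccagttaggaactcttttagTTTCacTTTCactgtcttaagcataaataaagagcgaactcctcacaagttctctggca
Gbp7: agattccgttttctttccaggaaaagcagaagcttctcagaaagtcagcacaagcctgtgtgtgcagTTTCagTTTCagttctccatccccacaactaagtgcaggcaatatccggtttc
Isg15: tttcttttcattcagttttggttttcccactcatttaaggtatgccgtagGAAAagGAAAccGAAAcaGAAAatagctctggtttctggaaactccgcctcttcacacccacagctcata
Irgm1: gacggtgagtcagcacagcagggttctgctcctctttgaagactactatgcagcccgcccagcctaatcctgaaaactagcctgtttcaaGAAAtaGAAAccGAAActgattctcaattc
Bst2: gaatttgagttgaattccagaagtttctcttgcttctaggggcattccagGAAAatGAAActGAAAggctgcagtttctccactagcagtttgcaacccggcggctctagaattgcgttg
Gbp2 and Gbp7 hold the element in antisense (TTTC), the other 3 in sense, and in Isg15, Irgm1 and Bst2 overlapping matches run together. Its first base lies 59 bases before the start in Gbp2, 53 in Gbp7, 78 in Isg15, 30 in Irgm1 and 130 in Bst2. The log2 differences of these genes were -3.51, -2.61, -1.21, -1.54 and -0.08, so genes with the same letters differed widely in response. A match of letters is a description and does not show that a factor is bound.

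**Figure D3:**
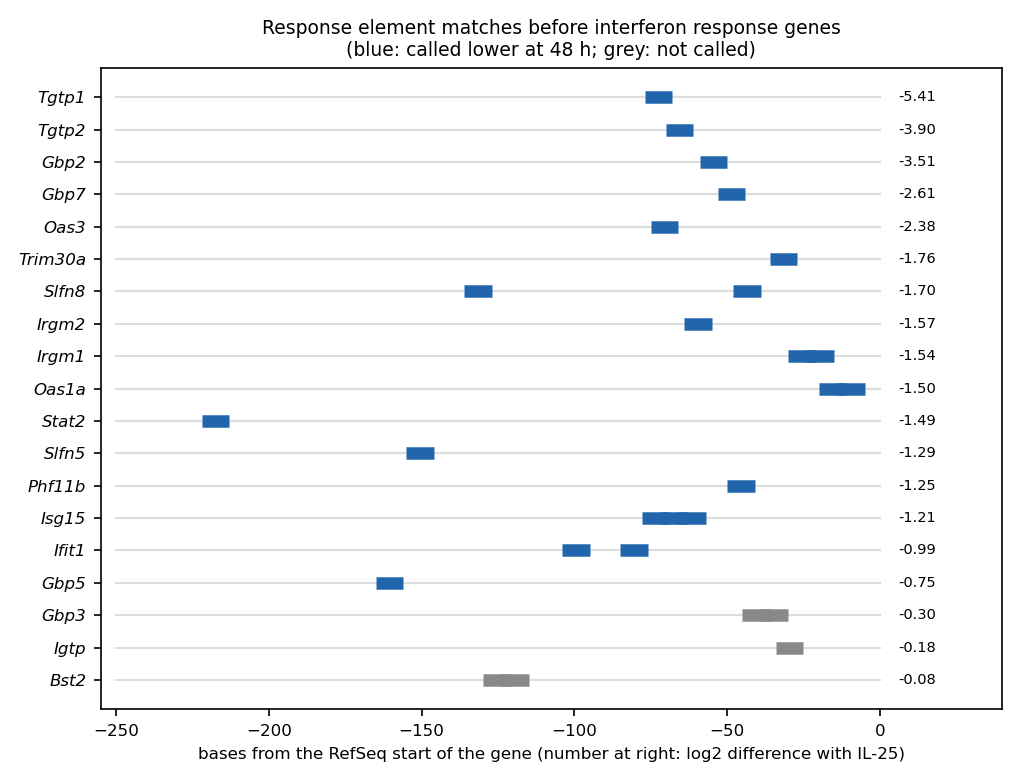
Matches to the interferon-stimulated response element (bars) in the 250 bases before the RefSeq start of 19 interferon response genes, horizontal axis in bases from the start, with the log2 difference at 48 h at the right and genes ordered by it. The 16 genes called lower are blue and Gbp3, Igtp and Bst2 grey; Slfn8 has entries for more than 1 start, drawn in 1 row.

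Antigen presentation followed the same direction. Of 23 genes of MHC class I and its peptide loading 21 fell and 2 rose (median log2 difference -1). The most abundant, B2m, the invariant light chain, was 9274, 8905, 8262 and 8585 TPM without IL-25 and 3747, 3500.4, 3598 and 3526 TPM with it (log2 difference -1.28 ± 0.05 (SE), limma adjusted p = 7.9e-17). H2-K1, a classical heavy chain, was 1422 ± 159 against 4206 ± 309 TPM, and Tapbp, which encodes tapasin, was 96.3 ± 1.48 against 254 ± 19.1 TPM. The heavy chain genes have near-identical relatives and their separate levels are uncertain. Calr (362 against 190.3 TPM) and Canx (183 against 125 TPM), the 2 members that rose, are general chaperones of the endoplasmic reticulum. Of the class II pathway, Cd74, which encodes the invariant chain, was 1.21 ± 0.61 against 19.5 ± 5.56 TPM, and H2-Oa was 15.9 ± 1.66 against 91.4 ± 10.9 TPM.

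Transcription factor genes changed in both directions. Of 29 factors linked to activation, 15 rose and 6 fell (median log2 difference 0.83). Zbtb32, a repressor of lymphocyte activation, was 51.9 ± 5.17 against 0.203 ± 0.078 TPM. Irf4 (21.9 ± 1.51 against 3.46 ± 0.731 TPM), Batf (423 ± 36.9 against 175 ± 15 TPM) and Prdm1 (21.9 ± 5.98 against 7.12 ± 2.2 TPM), which act together in effector lymphocytes, rose, as did Myc (94.5 ± 5.52 against 49.95 ± 6.4 TPM) and Pparg (65.6 ± 11.3 against 24.2 ± 3.11 TPM). Bhlhe40, a regulator of cytokine genes, moved against them and was 42.7, 46.2, 46.1 and 41 TPM without IL-25 and 3.56, 2.54, 8.7 and 4.35 TPM with it (log2 difference -3.06 ± 0.19 (SE), limma adjusted p = 1e-12). No library with IL-25 came near the controls.

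Of 28 lineage factors 7 rose and 11 fell. Gata3 (295 ± 11 against 723 ± 67.1 TPM), Rora (36.5 ± 6.31 against 179 ± 28 TPM) and Id2 (364 ± 27.9 against 872 ± 15.7 TPM), which define ILC2s, were all lower, while Bcl11b was 4.58 against 8.48 TPM (log2 difference -0.68, -1.29 to -0.08, limma adjusted p = 0.055). Bcl11b was called lower with array weights and when control library 1, control library 2 or IL-25 library 2 was left out. Nfil3, which is needed early in innate lymphoid development, rose to 72.3 ± 4.36 against 6.73 ± 1.52 TPM, Tox2 to 42.5 ± 2.09 against 3.71 ± 1.29 TPM and Myb to 7.93 ± 1.33 against 0.255 ± 0.191 TPM. Ahr, the dioxin receptor, fell to 1.91 ± 0.798 against 10.7 ± 1.69 TPM. Of 21 nuclear receptor genes 4 rose and 10 fell, among the latter Rxrg, which encodes retinoid X receptor gamma (3.65 ± 0.996 against 53.1 ± 7.78 TPM), and the clock gene Nr1d1 (0.892 ± 0.155 against 7.92 ± 2.63 TPM).

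Signalling genes downstream of the cytokines were mostly lower. Of 27 genes of the NF-kB pathway 16 fell and 5 rose. The alternative-pathway subunits Relb (6.92 ± 1.15 against 28.9 ± 1.06 TPM) and Nfkb2 (13.7 ± 2.45 against 38.5 ± 7.75 TPM) were among the fallen. The inhibitor gene Nfkbia (266 ± 35 against 126 ± 8.38 TPM) and its relative Bcl3 (36.8 ± 2.8 against 11.7 ± 2.62 TPM) were among the risen. Another inhibitor gene, Nfkbie, fell (log2 difference -1.68, limma adjusted p = 3.6e-11). Of 23 JAK, STAT and SOCS genes 12 fell and 3 rose. Stat4, the IL-12 signal transducer, was 14.3 ± 1.4 against 63.8 ± 7.78 TPM. Cish (87.2 ± 5.31 against 169.7 ± 10.2 TPM) and Socs2 (91 ± 13.1 against 177 ± 12.3 TPM), feedback genes of STAT5, fell, whereas Socs3 (79.2 ± 8.08 against 27 ± 3.45 TPM), a feedback gene of STAT3, and the kinase genes Pim2 (436 ± 20.9 against 101 ± 11.8 TPM) and Pim3 rose. Stat5a was 14.5 against 11.5 TPM (log2 difference 0.33, 0.01 to 0.65, limma adjusted p = 0.083), called higher after both rescalings, with array weights and when control library 3 or IL-25 library 4 was left out. Of 23 antigen receptor signalling genes 14 fell and 2 rose. They included Lat (44.1 ± 4.78 against 119 ± 6.47 TPM), Lcp2, which encodes SLP-76 (64.1 ± 8.47 against 224 ± 9.32 TPM), Txk (3.12 ± 0.326 against 33.5 ± 6.37 TPM) and Cd3g (24.3 ± 2.36 against 109.9 ± 21.3 TPM), the last being also the T cell marker that made up nearly all of that summed level.

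Growth machinery rose broadly. Of 53 ribosome biogenesis genes 45 rose and 0 fell by limma (median log2 difference 0.77), and 0 were lower at an unadjusted p under 0.05. After the median of ratios 46 rose and 0 fell, while 1 fell after quantile normalization and 1 when IL-25 library 1 was left out. Mrto4, a ribosome assembly factor, was 179 ± 16.2 against 64.1 ± 2.88 TPM, Npm1, which encodes nucleophosmin, was 2933 ± 115 against 1337 ± 75.8 TPM, and Rrs1 was 64 ± 2.74 against 26.4 ± 5.78 TPM. Aminoacyl-tRNA synthetases and their scaffold proteins rose in 18 of 24 cases, with Cars (32.1 ± 1.35 against 14.1 ± 2.36 TPM) and Eef1e1 (87.2 ± 9.42 against 36.6 ± 2.7 TPM) the furthest. Of 78 mitochondrial ribosomal proteins 54 rose and 3 fell (8 fell after quantile normalization), and of 37 proteasome subunits 33 rose, Psmd3 the furthest (131 ± 13.6 against 58.6 ± 24.5 TPM). The median log2 differences of these 3 lists were 0.64, 0.40 and 0.45. Psmd4, the ubiquitin receptor subunit, was 172 against 182 TPM (log2 difference -0.08, -0.22 to 0.06, limma adjusted p = 0.35).

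Genes that make nucleotides and amino acids rose as well. Of 33 pentose phosphate and nucleotide synthesis genes 24 rose and 4 fell. Shmt1 (83.2 ± 5.98 against 22.8 ± 5.51 TPM) and Shmt2 (188 ± 14.7 against 76.6 ± 7.36 TPM) transfer a carbon unit from serine to folate, and Impdh1 (38.4 ± 5.21 against 14.1 ± 2.72 TPM) starts guanine nucleotide synthesis. Tyms, the thymidylate synthase, fell (195 ± 19.7 against 278 ± 23.8 TPM). Of 30 amino acid genes 18 rose and 4 fell. The furthest risen were Bcat1, a branched-chain transaminase (9.31 ± 1 against 0.62 ± 0.572 TPM), Asns, asparagine synthetase (45.9 ± 5.06 against 6.19 ± 1.22 TPM), and Gpt2 (10.3 ± 2.36 against 0.865 ± 0.537 TPM), while the stress genes Ddit3 (10.2 ± 1.61 against 36.2 ± 22 TPM) and Sesn2 (5.35 ± 1.4 against 11.1 ± 2.3 TPM) fell. Asns was 7.16, 4.76, 5.59 and 7.26 TPM without IL-25 and 51.2, 39.1, 47.6 and 45.6 TPM with it, without overlap. The amino acid response element was searched as TGATGNAAT alone, on both strands over the promoter windows described above. It was found in 0.816% of all windows and in 0.4% of the 8506 tested genes with a window. In this list 1 of the 24 genes with a window held it (4.17%). That was Pycr1, a proline synthesis gene that rose (5.08 ± 0.831 against 0.495 ± 0.342 TPM). Other forms of the element were not searched, so the other genes of the list may hold one.

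Arg1 and the polyamine genes moved apart. Arg1, which ILC2s express at rest and which makes ornithine and urea, was 334, 351, 327 and 344 TPM without IL-25 and 102, 97.7, 91 and 98.8 TPM with it (log2 difference -1.79 ± 0.11 (SE), limma adjusted p = 1.3e-12). The enzymes that turn ornithine into polyamines rose, with Odc1 at 19.9 ± 4.35 against 7.12 ± 1.69 TPM, Srm, spermidine synthase, at 150.1 ± 14.2 against 38.2 ± 3.64 TPM and Sms, spermine synthase, at 119.5 ± 7.07 against 36.5 ± 4.66 TPM. Smox, spermine oxidase, rose too (28.9 ± 3.19 against 4.38 ± 1.61 TPM). Of 16 genes of the list 10 rose and 4 fell, and 2 fell after the median of ratios or when IL-25 library 2 or control library 1 was left out. Of 24 glycolysis genes 15 rose and 3 fell (1 after quantile normalization), among the risen the lactate exporters Slc16a1 (18 ± 3.03 against 3.61 ± 0.682 TPM) and Slc16a3 (95.7 ± 5.38 against 38.4 ± 3.73 TPM). Of 26 TCA cycle genes 17 rose, with the malate dehydrogenase Mdh2 at 524 ± 22.5 against 257 ± 12.9 TPM, and Pdha1 fell (86.1 ± 7 against 113 ± 17.1 TPM).

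Metallothioneins, small proteins that bind zinc and copper, were nearly absent without IL-25. Mt1 was 0.63, 1.32, 1.08 and 2.93 TPM without IL-25 and 58.1, 65.9, 79.8 and 68.9 TPM with it (log2 difference 4.87 ± 0.48 (SE), limma adjusted p = 4.8e-09), and Mt2 was 14.3 ± 5.5 against 0.152 ± 0.305 TPM. Both genes are adjacent on chromosome 8, and both were higher in every library with IL-25 than in any without it. In the iron, heme and redox list of 28 genes 12 rose and 8 fell, with the transferrin receptor Tfrc at 26.8 ± 4.37 against 8.48 ± 1.34 TPM, glutathione peroxidase Gpx1 at 396 ± 12.4 against 199 ± 19.2 TPM and, among the fallen, Txnip, the inhibitor of thioredoxin and of glucose uptake, at 8.32 ± 1.41 against 44.7 ± 6.56 TPM.

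The secretory pathway rose in 44 of 64 members tested and fell in 5. Kdelr3, a receptor that returns chaperones to the endoplasmic reticulum, was 0.7, 2.43, 0.57 and 0.18 TPM without IL-25 and 19.6, 15.7, 15.8 and 19.9 TPM with it (log2 difference 3.36 ± 0.3 (SE), limma adjusted p = 1.1e-09). Fkbp11, a prolyl isomerase of secretory cells, was 53.9 ± 3.34 against 2.19 ± 1.15 TPM, and the cargo receptor gene Lman1 was 118 ± 9.55 against 32.1 ± 2.42 TPM. Xbp1, the transcription factor that drives many of these genes after splicing of its RNA, was 197 against 178 TPM in total RNA (log2 difference 0.14, -0.01 to 0.29, limma adjusted p = 0.1; called higher after the median of ratios), and Stt3b, a subunit of the glycosylation complex, fell (10.9 ± 1.23 against 33.8 ± 3.89 TPM).
The endoplasmic reticulum stress response element was searched as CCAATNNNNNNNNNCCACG on both strands over the same windows. It was found in 0.113% of all windows, in 0.176% of the 8506 tested genes with a window and in 7 of the 52 secretory pathway genes with a window (13.5%). Of these 7, 6 were called higher and Dnajc3 was not (36.4 against 33.5 TPM, log2 difference 0.11, -0.05 to 0.28, limma adjusted p = 0.24). Dnajc3 was called higher after the median of ratios. With or without the element, 33 of the 52 were called higher. The element was held by 18.2% of these 33. The following stretches, also chosen after the values were seen, show it in capitals in 3 genes that rose and in Dnajc3. Hspa5 lies at chr2:34771970-34772089 (+), Pdia6 at chr12:17266441-17266560 (+), Creld2 at chr15:88819470-88819589 (+) and Dnajc3 at chr14:118937777-118937896 (+).
Hspa5: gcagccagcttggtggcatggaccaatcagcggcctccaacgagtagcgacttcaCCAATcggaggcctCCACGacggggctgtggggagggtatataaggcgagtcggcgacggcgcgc
Pdia6: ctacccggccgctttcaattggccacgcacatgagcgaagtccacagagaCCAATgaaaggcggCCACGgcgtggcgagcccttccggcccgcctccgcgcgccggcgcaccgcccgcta
Creld2: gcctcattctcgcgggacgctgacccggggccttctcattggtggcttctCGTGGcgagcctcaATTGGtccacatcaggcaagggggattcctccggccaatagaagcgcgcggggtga
Dnajc3: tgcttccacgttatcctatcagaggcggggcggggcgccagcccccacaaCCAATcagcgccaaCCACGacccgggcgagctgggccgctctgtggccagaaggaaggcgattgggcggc
The first base of the match lies 65 bases before the start in Hspa5, 98 in Pdia6, 126 in Creld2, where it is antisense, and 105 in Dnajc3. Hspa5, which encodes the chaperone BiP, was 669.7 ± 10.4 against 375 ± 24.8 TPM, Pdia6 was 388 ± 11.3 against 193 ± 15.8 TPM and Creld2 was 162 ± 7.1 against 84.2 ± 9.84 TPM. All 3 rose by close to 1 on the log2 scale (0.84, 1 and 0.94).

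**Figure D4:**
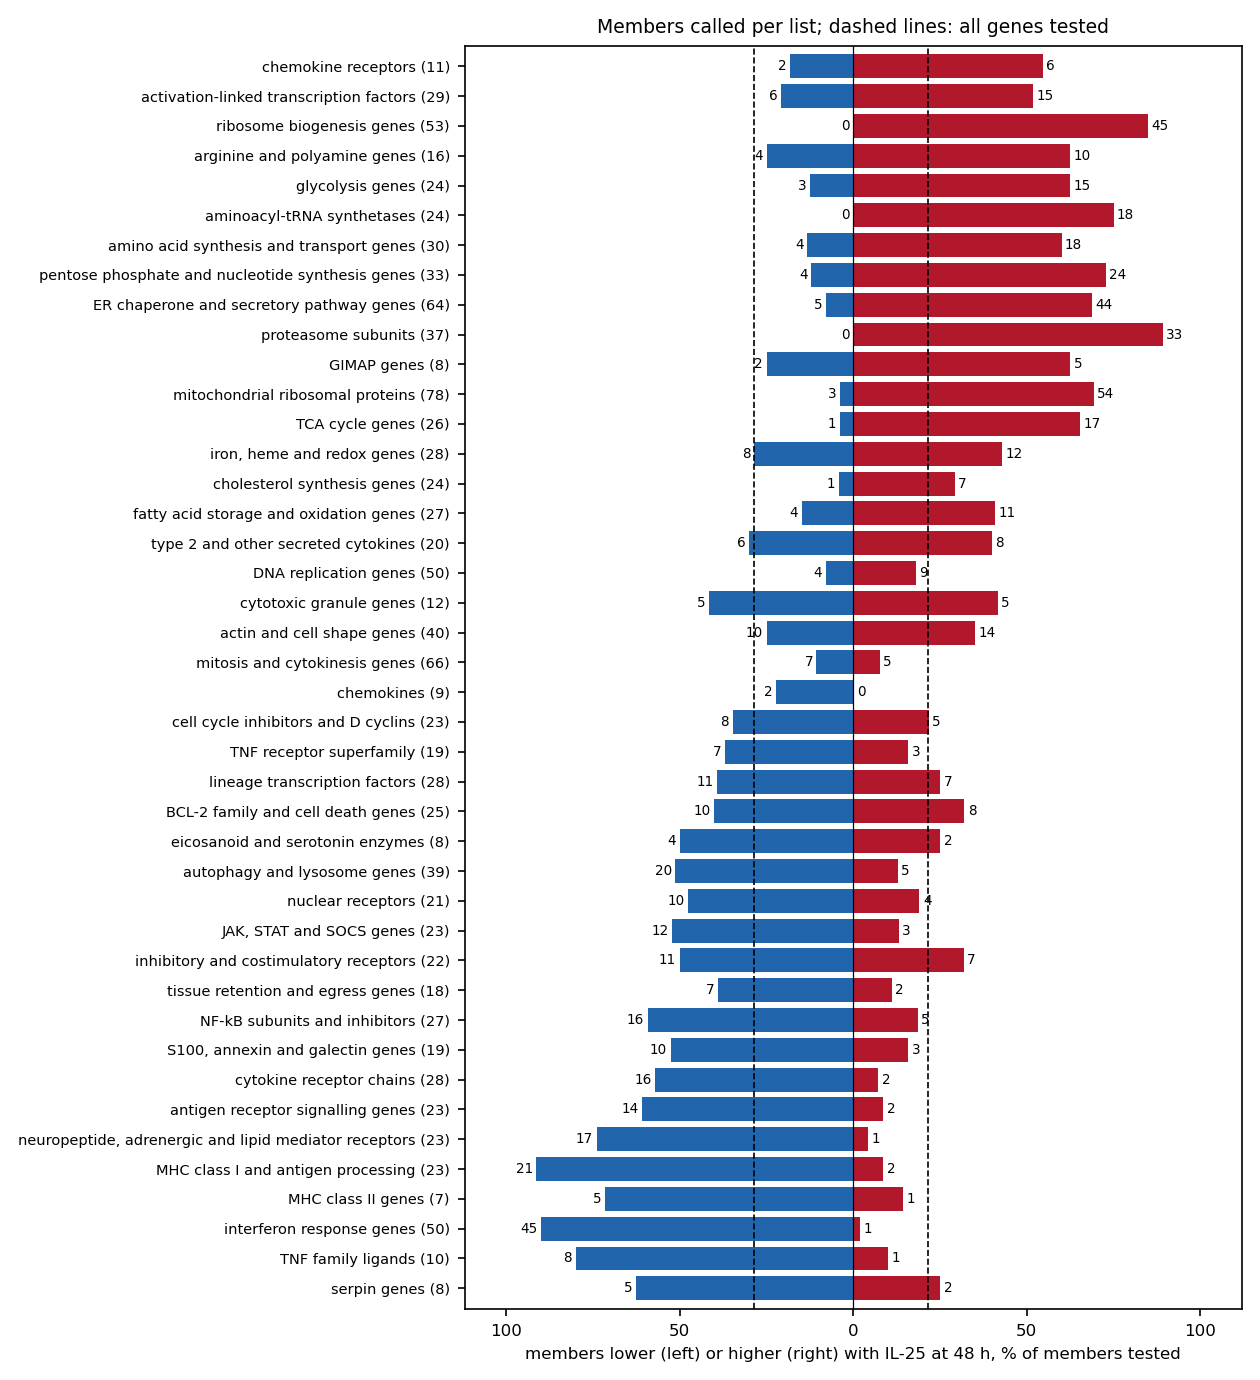
Share of the tested members of each of 42 gene lists called higher (red, right) or lower (blue, left) with IL-25 at 48 h, with the counts at the bar ends, the number tested in brackets and lists ordered by median log2 difference. The dashed lines mark the shares over all genes tested, 21.4% higher and 28.7% lower; ribosome biogenesis (45 of 53) and proteasome genes (33 of 37) lie far beyond the first, and interferon response (45 of 50) and MHC class I genes (21 of 23) far beyond the second.

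Few cell cycle genes were called. Of 50 DNA replication genes 9 rose and 4 fell, against 19 and 1 after the median of ratios and 14 risen in the fit of the 8 libraries alone. The number fallen was 1 or 2 when IL-25 library 2 or 4 or control library 2 or 3 was left out. Of 66 mitosis genes 5 rose and 7 fell, with a median log2 difference of 0. The number fallen was 14 when control library 1 was left out and 3 or 4 when control library 2 or 3 or IL-25 library 4 was, and 8 or 9 rose without control library 3 or after the median of ratios. With a pseudocount of 0.1 TPM 4 rose and 3 fell. The proliferation marker Mki67 was 14.1, 21.4, 26.6 and 23.1 TPM without IL-25 and 19.1, 16.4, 16.9 and 15.5 TPM with it (log2 difference -0.28, -0.65 to 0.09, limma adjusted p = 0.2). Its groups overlapped, and the difference was called lower when control library 1 was left out, the only alternative of those run that called it. Aurka, a mitotic kinase gene, rose (93.6 ± 3.55 against 53.5 ± 17.8 TPM), as did Rrm2, the ribonucleotide reductase subunit (477 ± 29.5 against 318 ± 42.8 TPM), while Top2a fell (81.2 ± 12.2 against 119 ± 27.5 TPM). Among cycle inhibitors, Cdkn1a (175 ± 19.8 against 309 ± 34.3 TPM), Cdkn1b (11.2 ± 2.62 against 20.4 ± 2.43 TPM) and the antiproliferative gene Btg2 (12 ± 1.1 against 35.7 ± 3.61 TPM) fell, and Cdk6 rose (104 ± 9.65 against 54.7 ± 10.4 TPM).

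Within the BCL-2 family, survival genes moved in opposite directions. Bcl2, the founding inhibitor of cell death (chromosome 1, 106538176 to 106714290), was 56.5, 60.9, 75.3 and 51.1 TPM without IL-25 and 3.88, 4.42, 3.9 and 4.22 TPM with it (log2 difference -3.59 ± 0.11 (SE), limma adjusted p = 5.2e-19). The groups were far apart and did not overlap. Bcl2l1, which encodes the related inhibitor BCL-XL, rose (131 ± 7.18 against 83.4 ± 8.59 TPM), as did the death effectors Bid (18.7 ± 2.16 against 6.5 ± 0.52 TPM) and Bbc3 (6.27 ± 2.42 against 2.71 ± 1.13 TPM). Mcl1 fell (10.5 ± 1.84 against 15.2 ± 0.726 TPM). Of 25 members 8 rose and 10 fell, against 9 and 8 after the median of ratios, 7 and 6 after quantile normalization and 9 and 5 when control library 3 was left out.

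Cytotoxic granule genes were equally divided, with 5 of 12 higher and 5 lower. Gzmb, granzyme B (chromosome 14, 56258836 to 56262334), was 18.1, 106, 52.2 and 31.1 TPM without IL-25 and 1573, 1646, 1692 and 1653 TPM with it (log2 difference 5.25 ± 0.4 (SE), limma adjusted p = 5.8e-11). Prf1, which encodes perforin, was 11.6 ± 0.518 against 3.25 ± 0.801 TPM, and Gzma was 1647 ± 166 against 17.3 ± 8.28 TPM. Nkg7, a granule membrane protein, fell (15.8 ± 2.33 against 113 ± 15.8 TPM), as did Ctsw (5.5 ± 2.04 against 41.2 ± 7.81 TPM). Of 8 genes of serpins, a family of protease inhibitors, 5 fell, among them Serpinb9, the inhibitor of granzyme B (1.6 ± 0.538 against 18.3 ± 1.06 TPM), and Serpinb1a (3.83 ± 2.68 against 142 ± 22.8 TPM). The 2 that rose were Serpine2 (22.4 ± 3.5 against 8.77 ± 2.52 TPM) and Serpinb6a (97.5 ± 8.4 against 74.6 ± 5.47 TPM).

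Membrane, cytoskeletal and lysosomal genes changed in both directions. Of 19 S100, annexin and galectin genes 10 fell and 3 rose (6 rose after the median of ratios), with S100a4 (233 ± 56 against 600.00 ± 47.7 TPM) and Anxa1 (4.52 ± 0.895 against 21.2 ± 0.882 TPM) lower and Lgals3 (100.1 ± 6.94 against 27.2 ± 5.31 TPM) and Lgals1 (2439 ± 145 against 1144 ± 150.2 TPM) higher. Of 39 autophagy and lysosome genes 20 fell and 5 rose (3 when IL-25 library 2 was left out), Psap (29.1 ± 0.946 against 116 ± 12 TPM) and Ctss (23.9 ± 1.66 against 70.4 ± 9.26 TPM) among the fallen and Ctsl (19.9 ± 8.19 against 5.46 ± 1.87 TPM) the furthest risen. Of 40 actin and cell shape genes 14 rose and 10 fell, but 11 rose and 13 fell after quantile normalization, with Tubb6 (123 ± 19.7 against 29.6 ± 4.07 TPM) and Rac1 (103 ± 15.1 against 39.3 ± 12.5 TPM) higher and Tmsb10 lower (846 ± 110.4 against 1814 ± 91.3 TPM), while Actb was 5025 against 5114 TPM (log2 difference -0.02, -0.12 to 0.07, limma adjusted p = 0.69). Gimap7, of the GIMAP family of lymphocyte GTPases, rose (147 ± 8.69 against 42.9 ± 3.03 TPM), with 4 others of the 8 members.

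Several of the largest changes fell outside the lists. Upward, they included Fcmr, the IgM Fc receptor gene (36 ± 5.06 against 1.02 ± 0.855 TPM), Ppic, cyclophilin C (141 ± 13.1 against 3.59 ± 1.03 TPM), Ppme1, a methylesterase of protein phosphatase 2A (281 ± 24.9 against 28.3 ± 2.98 TPM), Adap1 (17.9 ± 1.99 against 0.357 ± 0.0964 TPM), Myl4 (43.9 ± 3.07 against 3.7 ± 1.1 TPM) and Pkib, an inhibitor of protein kinase A (11.8 ± 2.16 against 0.0425 ± 0.0613 TPM). Tg, the gene of thyroglobulin, was 288 ± 21.1 against 1.16 ± 0.309 TPM. Downward they included Plxdc2 (4.86 ± 0.978 against 137 ± 15 TPM) and Plscr1. Plscr1, a phospholipid scramblase induced by interferon, was 329.6, 319, 397 and 342 TPM without IL-25 and 16.8, 13.5, 18.4 and 18.3 TPM with it (log2 difference -4.3 ± 0.1 (SE), limma adjusted p = 1e-20). Also lower were Ahcyl2 (11.5 ± 2.09 against 243 ± 27.7 TPM), Lpcat2, an enzyme of phospholipid remodelling (1.44 ± 0.767 against 37.8 ± 7.07 TPM), Rgs18 (0.195 ± 0.179 against 17.7 ± 2.43 TPM), Ms4a6b (7.82 ± 2.91 against 126 ± 13 TPM) and Rad51b (3.54 ± 0.235 against 59.9 ± 5.2 TPM). For each gene of this paragraph the 4 libraries with IL-25 lay wholly on the same side of the 4 without it.

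The effect at 48 h was compared with those at 4 and 72 h, each measured against its own cultures without IL-25. Against 4 h, the effect was higher for 1812 genes (17.2%) and lower for 1126 (10.7%). Against 48 h, the effect at 72 h was higher for 551 genes (5.22%) and lower for 1002 (9.50%), but higher for 869 and lower for 604 after the median of ratios, so the balance of directions between 48 and 72 h depends on the scaling. The medians of the effect over all genes were -0.12 at 4 h, -0.09 at 48 h and -0.20 at 72 h. The effect at 48 h lay above those at both other times for 330 genes (3.13%) and below both for 140 (1.33%). After the median of ratios these counts were 185 and 241. The genes named next kept their place under both rescalings and whichever library of 48 h was left out, but with a pseudocount of 0.1 TPM Il24 and S1pr1 no longer lay above both times.

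Of the migration and cytokine genes described above, Ccr7, S1pr1, Il24 and Itga4 were among those above both times. The effect on Ccr7 was 2.56 at 4 h, 5.37 at 48 h and 3.3 at 72 h, that on S1pr1 0.07 at 4 h, 3.78 at 48 h and 2.35 at 72 h and that on Il24 -0.17 at 4 h, 4 at 48 h and 1.89 at 72 h. The change from 4 to 48 h was 3.71 (limma adjusted p = 2.2e-08) for S1pr1, and that from 48 to 72 h was -1.43 (limma adjusted p = 0.0098). For Itga4 the effects were -0.3 at 4 h, 2.66 at 48 h and 1.37 at 72 h. Mpzl1, a cell surface glycoprotein gene, followed with 0.92 at 4 h, 3.33 at 48 h and 1.91 at 72 h. For Serpine2 the effects were -0.01 at 4 h, 1.29 at 48 h and -0.54 at 72 h, above 0 at 48 h alone. Dhrs3, a retinaldehyde reductase of vitamin A metabolism (25.2 ± 3.47 against 4.38 ± 0.913 TPM at 48 h), had effects of -0.8 at 4 h, 2.29 at 48 h and 0.86 at 72 h, and Chchd10, a mitochondrial protein gene, of -0.13 at 4 h, 2.33 at 48 h and 0.63 at 72 h.

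Below both times lay Tespa1, a signalling protein of thymocytes, at -0.61 at 4 h, -3.8 at 48 h and -1.77 at 72 h. Its levels at 48 h were 212, 198, 247 and 217 TPM without IL-25 and 14, 12.8, 17.8 and 14.7 TPM with it, without overlap. The effect on Bhlhe40 was 0.12 at 4 h, -3.06 at 48 h and -0.92 at 72 h. It changed by -3.18 (limma adjusted p = 1.2e-09) from 4 to 48 h and by 2.14 (limma adjusted p = 4.4e-06) from 48 to 72 h. Nkg7 (-0.82 at 4 h, -2.76 at 48 h and -0.48 at 72 h) and Isg20, an interferon-induced exonuclease (-0.82 at 4 h, -2.76 at 48 h and 0.03 at 72 h), followed the same course. So did the inhibitory receptor gene Lilrb4a (0.06 at 4 h, -2.2 at 48 h and -0.16 at 72 h) and the related gene Lilr4b (-0.1 at 4 h, -2.5 at 48 h and -0.18 at 72 h). The last pair are close copies and their separate values are uncertain.

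Lists differed in when their members responded. Of 53 ribosome biogenesis genes, 36 had a lower effect at 72 h than at 48 h (32 after the median of ratios, 29 after quantile normalization), and the list medians were 0.65 at 4 h, 0.77 at 48 h and 0.10 at 72 h. Of 64 secretory pathway genes 40 had a higher effect at 48 h than at 4 h (39 and 37 after the rescalings), with medians of -0.04, 0.46 and 0.48. Of 24 glycolysis genes 18 had a higher effect at 48 h than at 4 h and 16 a higher one at 72 h than at 48 h (17 and 16 after the median of ratios). Interferon response genes had a lower effect at 48 h than at 4 h in 28 of 50 cases, and 14 had a higher one at 72 h than at 48 h. Mitochondrial ribosomal proteins had a lower effect at 72 h than at 48 h in 42 of 78 cases, but in 21 after the median of ratios and 17 after quantile normalization, and proteasome subunits in 16 of 37, but in 2 and 7.

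**Figure D5:**
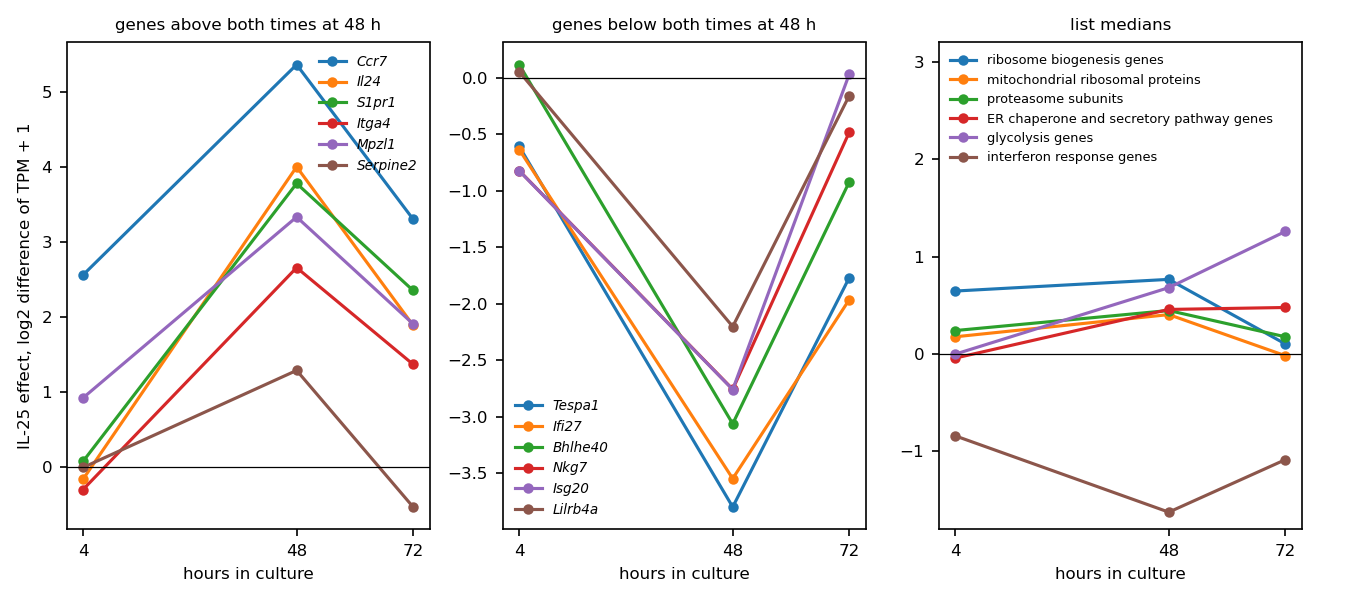
Effect of IL-25 (log2 difference of TPM + 1, with minus without) at 4, 48 and 72 h of culture, for 6 genes above both other times at 48 h (left), 6 genes below both (middle) and the medians of 6 gene lists (right), each panel with its own vertical axis. Serpine2 is above 0 at 48 h alone, Isg20 is near 0 again at 72 h, and the median of glycolysis genes goes on rising to 1.26 at 72 h while that of ribosome biogenesis genes falls to 0.10.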

How the data were processed

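The authors deposited 1 table of TPM values for the 24 culture libraries, and the 8 libraries of 48 h were taken from it by their labels. The submitters' processing notes name the build mm10 and, among other tools, RSEM 1.3.3, STAR 2.7.5c and cutadapt 2.10. The authors' filter on listed genes is not given in the sources used here, and no mitochondrially encoded gene is listed. The second RNA table and the chromatin samples were not used here.

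All 24 culture libraries were fitted on log2(TPM + 1) with limma 3.58.1 in R 4.3.3 (lmFit, eBayes with a trend), with 1 mean for each of 6 groups and no replicate block, so that the groups share an estimate of the spread. A gene was tested if 4 or more libraries reached 1 TPM (10548 of 10799). Benjamini-Hochberg adjustment ran over all these genes, with calls at an adjusted p under 0.05. The change of the effect between times was tested as an interaction in the same fit. Depth is unknown, so no counting interval is given. The procedure was tested on simulated data.

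The 42 gene lists, the marker lists and the rule for named genes were chosen with earlier results of these data known. The rule took key genes, the 30 largest rises and 30 largest falls without overlap (at least 10 TPM in the higher group), up to 8 called members per list and direction with at least 5 TPM and up to 4 not called, and up to 12 genes per direction with the effect at 48 h beyond both other times. Not every gene it covers is named. Genes named for a promoter match, Ccr3, Ccl1, Cxcl10, H2-DMb1, Pla2g4a and the markers of other cell types stand outside it and were chosen after their values were seen. Symbols matched RefSeq for 10701 of 10799 genes. Coordinates and promoter windows come from RefSeq for GRCm38.p6, the assembly of mm10, and of the 300 bases of a window only the 250 before the start were searched and printed.

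The alternatives changed the pseudocount (0.1 TPM), the filter (none, or 5 TPM), the scaling (median of ratios, or quantile) or the fit (the 8 libraries alone, array weights, a replicate block), or left out each of the 8 libraries.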

Additional observations from a re-analysis of the deposited data

Results flagged for a closer look

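Over 244 of the genes named, Dixon's test found a lone library apart from the other 3 in 27 groups of 4 libraries. That was 5.58% of the groups tested, where the threshold of the test flags about 1 in 20 by chance. The flags were not spread evenly over the libraries. Most of those without IL-25 fell on library 3, each time at the top. When control library 3 was left out, 4845 genes were called, 2275 higher and 2570 lower, and the share called higher was 47%. The cause was not tested. Alone at the top of the group without IL-25 were Adora2b (12.9 TPM in library 1), Cd200r1 (258 TPM in library 3), Cd96 (87.9 TPM in library 3), Gbp2 (227 TPM in library 4), Icosl (7.9 TPM in library 3), Id2 (896 TPM in library 3), Mt2 (0.61 TPM in library 3), P2ry1 (28.1 TPM in library 3), Psap (134 TPM in library 3) and Rad51b (67.6 TPM in library 3). Alone at the top of the group with IL-25 were Alox5ap (0.19 TPM in library 4), Ctla4 (87.7 TPM in library 1), Cxcl10 (0.26 TPM in library 2), Il17ra (11 TPM in library 1), Il2 (0.22 TPM in library 3), Itga4 (105 TPM in library 1), Lpcat2 (2.58 TPM in library 3), Pla2g4a (6.08 TPM in library 4), Tnfrsf9 (163 TPM in library 3), Txk (3.61 TPM in library 1) and Txnip (10.4 TPM in library 3). Alone at the bottom of the group without IL-25 was Ctsl (2.67 TPM in library 2). Alone at the bottom of the group with IL-25 were Creld2 (152 TPM in library 4), Pdcd1 (15.9 TPM in library 2), Rrs1 (59.9 TPM in library 2), Sc5d (63.1 TPM in library 2) and Tox2 (39.4 TPM in library 4).

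Effects of IL-25 that differed between times by the interaction test were counted over all genes. The effect was higher at 48 h than at 4 h for 1812 genes and lower for 1126, and higher at 72 h than at 48 h for 551 and lower for 1002. It was above both other times at 48 h for 330 genes and below both for 140. Some genes named in the text had an effect at 48 h beyond both other times, Zbtb32 (above both) among them. Their change of the effect from 4 to 48 h on the log2 scale was, in brackets, Bhlhe40 (-3.18), Ccr7 (2.81), Chchd10 (2.46), Dhrs3 (3.09), Il24 (4.17), Isg20 (-1.94), Itga4 (2.96), Lilr4b (-2.39), Lilrb4a (-2.26), Mpzl1 (2.41), Nkg7 (-1.94), S1pr1 (3.71), Serpine2 (1.3), Tespa1 (-3.19) and Zbtb32 (4.89).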

How the results depend on the processing

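TPM gives no depth, and with 4 libraries a group small differences are missed. The 5280 calls became between 4710 and 5511 under the alternatives, of which 83.9% to 99.8% of the original calls were shared, and between 4845 and 5160 when 1 library was left out. Their share called higher was 42.7% as reported, 51.1% after the median of ratios and 50.1% after quantile normalization. After the median of ratios 869 genes had a higher and 604 a lower effect at 72 h, and after quantile normalization 652 had a lower one. The effect at 48 h was above both other times for 185 genes after the median of ratios and 191 after quantile normalization, and below both for 241 after the median of ratios. The cause was not tested. Bax, a death effector gene, was higher by 0.19 on the log2 scale as reported and -0.033 after quantile normalization (limma adjusted p = 0.73). Il1rl1 and Xbp1 were called higher after the median of ratios, and Ccr8, Cysltr1, Lgals3bp, Psmd4 and Tph1 were called after quantile normalization. Same-numbered libraries of both groups did not deviate together (r of -0.08, 0.04, -0.01 and -0.04 for numbers 1 to 4). The labels do not say whether the numbers pair them, and values of r this small cannot decide it. A replicate block gave 5298 calls, 2253 higher and 3045 lower. Of 631 genes under the rule or named, 3 lost and 2 gained their call with the block.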

Other observations

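A few gene groups of the same comparison remain to be described. Of 27 fatty acid storage and oxidation genes 11 were higher and 4 lower with IL-25 at 48 h. The enzymes of the last step of triglyceride synthesis, Dgat1 (44.4 ± 3.66 against 20.8 ± 3.12 TPM) and Dgat2 (8.23 ± 2.08 against 2.98 ± 1.08 TPM), and Hilpda, which blocks fat breakdown on lipid droplets (111 ± 11.2 against 40.05 ± 3.44 TPM), rose. Of the lipases that release stored fat, Lipe (2.56 ± 0.81 against 7.72 ± 2.24 TPM) and Mgll (1.34 ± 0.503 against 9.04 ± 1.23 TPM) fell. Pnpla2, another of these lipases, was not called (log2 difference 0.23, limma adjusted p = 0.074). Of 24 cholesterol synthesis genes 7 rose and Sc5d fell (70.9 ± 5.24 against 83.8 ± 1.55 TPM), while 13 rose after the median of ratios or quantile normalization. Sc5d was not called after the median of ratios or when IL-25 library 2 was left out.

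Of 9 chemokine genes Ccl1 (0 against 1.28 TPM) and Cxcl10 (0.065 against 2.17 TPM) fell, 0 rose by limma and 0 were higher at an unadjusted p under 0.05, while 1 was called higher after quantile normalization. Of 7 MHC class II pathway genes 5 fell and H2-DMb1 rose (3.53 against 1.61 TPM), a call that ended with a pseudocount of 0.1 TPM. Of 8 GIMAP genes 5 rose and 2, Gimap3 (198 ± 18.9 against 234 ± 25.3 TPM) and Gimap8 (8.71 ± 2.15 against 11.2 ± 1.8 TPM), fell by little. Neither of the latter was called after the median of ratios. The call of Gimap8 also ended after quantile normalization, in the fit of the 8 libraries alone and when IL-25 library 2, 3 or 4 or control library 2 or 3 was left out. Of 23 cell cycle inhibitors and D cyclins 5 rose and 8 fell, with Ccnd3, cyclin D3, at 193 ± 13.5 against 356 ± 35.9 TPM and E2f4 at 37.7 ± 1.77 against 17.8 ± 1.09 TPM, and 3 rose when IL-25 library 3 or control library 4 was left out or in the fit of the 8 libraries alone, while 7 rose and 7 fell after the median of ratios.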
